A study of Mus musculus with 6 samples.

Results

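Merged loci are the rows of the deposited count table that name more than 1 gene and carry a single count for all of them. A row was taken as a merged locus when its name field held at least 2 different gene symbols and its raw CPM, the count scaled to its library's total, reached 1 in at least 3 of the 6 libraries. This rule gave 1333 merged loci of the 59699 rows in the table. A further 285 rows named several genes but fell below the CPM threshold. The merged loci were thus chosen by raw CPM without regard to genotype, and 1 of them reached 1 CPM in the 3 KO libraries and in 0 WT libraries. In all 6 libraries the threshold was reached by 1274 of the 1333 loci, and in exactly 3 by 10 loci. Just inside the threshold were *Itpr3/Mir7677* and *Hoga1/4933411K16Rik*, with a third-highest raw CPM of 1.02 and 1.04, and just outside were *Mettl4-ps1/Spdya* at 0.982 and *Emp3/Gm45442* at 0.970.

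The counts come from mouse neural progenitor cells (NPCs) of 3 *Armc5* KO and 3 WT cultures, numbered 1 to 3 in each genotype. The cells were taken from ganglionic eminences of e13.5 fetuses and grown as neurospheres with epidermal growth factor (EGF, 20 ng/ml) to passage 2. KO NPCs carried a germline deletion of both *Armc5* alleles (*Armc5* -/-) and WT NPCs did not. The labels call the cells neural stem cells. The labels give the strain of all samples as 129 sv X CD1, while the methods of the study name a different cross. Neurosphere cultures are a model of progenitors expanded outside the embryo. The smallest library, KO NPC 3, held 55722527 counts and the largest, KO NPC 1, 86554006. *Armc5* had 84, 119 and 43 counts in KO NPCs 1, 2 and 3, and 1966, 2114 and 1797 counts in WT NPCs 1, 2 and 3. Neural progenitor markers were all detected (9 of 9), with a summed raw CPM of 3414 to 4621 in the KO NPCs and 3997 to 4412 in the WT NPCs. Oligodendrocyte lineage markers (7 of 8 detected) summed to 2438 to 3502 in the KO NPCs and 2355 to 2933 in the WT NPCs. Neuronal markers (8 of 8) summed to 769 to 1458 in the KO NPCs and 786 to 1385 in the WT NPCs. The microglial list had 0 of 5 markers detected and a summed raw CPM of at most 1.30. KO NPC 3 stood apart. It was the library with the lowest value at 619 of the merged loci (46.4%) and with the highest value at 393 (29.5%), and over all 19089 loci tested these shares were 36.8% and 34.9%. Its 6 astrocyte markers summed to 2586 raw CPM, against 582 to 1142 in the other 5 libraries, and its 6 fibroblast and meninges markers, 2 of them detected, to 63.9, against 1.71 to 8.98. Its neural progenitor markers had the lowest sum, 3414 against 3876 to 4621. Its 5 endothelial markers, 1 of them detected, summed to 16.5, against 3.32 to 4.66. The part of these marker differences in the results below was not tested, and in bulk RNA fewer cells of a type and less RNA per cell cannot be told apart.

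Several genes can share 1 stretch of one strand in known ways. Small nucleolar RNAs and many microRNAs are cut out of the introns or exons of a longer host transcript. Neighbouring genes can be joined by a read-through transcript that runs from the first into the second. Tandem copies of one gene can be close enough in sequence and place that transcript assembly links them. When transcripts that touch on one strand are grouped into one locus, the reads of all these genes are counted together.

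MicroRNAs are the clearest case of genes that a merged row names but does not measure, since a mature microRNA of about 22 bases is not what a library of this kind counts. The count of such a row is that of the host transcript and its neighbours. Annotated microRNA genes stood in the names of 306 merged loci, 361 genes in all, of which 96 carried a predicted-gene symbol. Mature sequences were found in RefSeq (GRCm38.p6) for 246 of them, 416 sequences at 204 loci, and all 416 lay inside the coordinates of their locus. A microRNA recognises its targets mainly through its seed, bases 2 to 8, and the 416 sequences held 372 different seeds. A seed was shared between at least 2 merged loci in 23 cases, and 43 of the 204 loci shared a seed with another. The following mature sequences are those of the best known of these families, printed from the 5′ end with the seed in capitals, because they show which products the separate loci have in common. The miR-17 seed was carried by *Mir17hg* (chr14:115041492-115046727, plus strand) and by *Mcm7* (chr5:138164583-138172422, minus strand), and so was the miR-92 and miR-25 seed.
mmu-miR-17-5p: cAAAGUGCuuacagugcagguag
mmu-miR-20a-5p: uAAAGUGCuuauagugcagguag
mmu-miR-93-5p: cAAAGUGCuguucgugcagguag
mmu-miR-92a-3p: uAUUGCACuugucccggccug
mmu-miR-25-3p: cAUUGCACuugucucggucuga

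The let-7 seed was carried by 4 merged loci with 7 microRNA genes between them. These were *6720427I07Rik* with let-7a-1, let-7d and let-7f-1 (chr13:48532905-48546500, minus strand), *Lncppara* with let-7b and let-7c-2 (chr15:85653616-85710421, plus strand), *Mir99ahg* with let-7c-1 (chr16:77236317-77773427, plus strand) and *D630033A02Rik* with let-7i (chr10:122985074-122986555, minus strand). Let-7 microRNAs are known to accumulate as neural progenitors mature.
mmu-let-7a-5p: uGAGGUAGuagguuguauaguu
mmu-let-7b-5p: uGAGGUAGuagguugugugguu
mmu-let-7c-5p: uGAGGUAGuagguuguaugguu
mmu-let-7d-5p: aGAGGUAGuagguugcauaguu
mmu-let-7f-5p: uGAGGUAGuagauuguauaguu
mmu-let-7i-5p: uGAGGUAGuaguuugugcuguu

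The miR-125 seed was also carried by 4 loci, the miR-15 and miR-16 seed by 3, and the miR-9 sequence by 2. The same miR-125b-5p is encoded at the *3110039I08Rik* locus (chr9:41327077-41716994, plus strand) and beside *C130023A14Rik* (chr16:77646273-77649426, plus strand). The same miR-16-5p is encoded in introns of *Dleu2* and of *Smc4*, and the same miR-9-5p in an intron of *Gm3764* (chr3:88206314-88229959, plus strand) and an exon of *C130071C03Rik* (chr13:83714959-83884194, plus strand). miR-9 is a microRNA of the developing nervous system.
mmu-miR-125a-5p: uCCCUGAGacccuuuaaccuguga
mmu-miR-125b-5p: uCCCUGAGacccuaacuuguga
mmu-miR-351-5p: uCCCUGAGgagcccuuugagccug
mmu-miR-15b-5p: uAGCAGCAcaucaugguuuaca
mmu-miR-16-5p: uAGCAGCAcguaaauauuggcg
mmu-miR-322-5p: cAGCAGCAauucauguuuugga
mmu-miR-9-5p: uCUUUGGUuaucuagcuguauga

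By the GENCODE M21 annotation, the mature sequences of miR-17, miR-20a, miR-92a, miR-93, miR-25 and of let-7a-1, let-7b, let-7c-2, let-7d, let-7f-1 and let-7i lay in an exon of the joined longer gene. Those of let-7c-1, miR-99a, miR-15b and both copies of miR-16 lay in an intron. Here and above, a sequence was counted as exonic when an exon of any annotated transcript of the longer gene covered it. Such a sequence may lie in an intron of other transcripts of that gene, which was not examined. Those of miR-29a, miR-29b-1, miR-27a, miR-322, miR-351 and miR-125b-2 lay in no longer gene that their locus names. Over the 38 mature sequences whose families were followed across loci, 25 lay in an exon, 8 in an intron and 6 outside any longer gene, with miR-125b-1 in an exon of *Gm28119* and an intron of *3110039I08Rik*.

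The merged loci were longer than the rows that name 1 gene. Their span on the genome had a median of 50.6 kb (quartiles 20.2 and 126 kb), against 23.2 kb (7.33 and 64.5 kb) for the 12731 single-gene rows that met the same CPM threshold. The median exonic length was 8.65 kb against 4.67 kb. A span of at least 100 kb was found at 423 merged loci, of at least 500 kb at 47 and of at least 1 Mb at 12. Per kb of exonic length the median raw CPM was 5.99 at the merged and 5.09 at the single-gene loci. The merged loci made up 8.09% of the 16475 rows that met the threshold. They were read from both strands, 699 from the plus and 634 from the minus strand, and each of the 3405 annotated genes found in their names lay on the strand of its locus. A locus on the other strand overlapped 966 of them (72.5%), and another locus on the same strand overlapped 649.

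**Figure D1:**
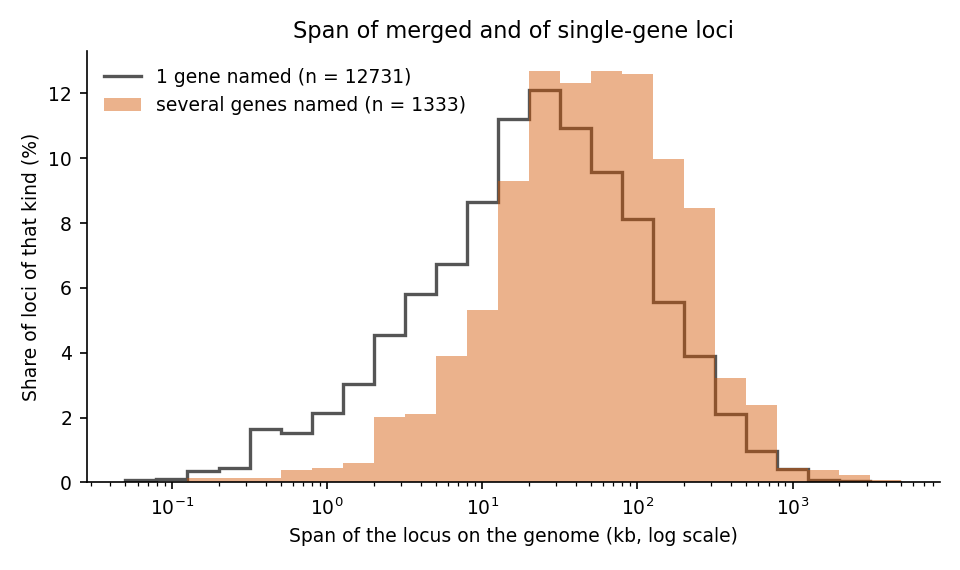
Span on the genome in kb (log axis) of the 1333 loci that name several genes, filled, and of the 12731 that name 1 gene, line, as the share of loci of each kind in each bin. The merged loci are shifted to longer spans, with medians of 50.6 and 23.2 kb, and reach 4499 kb.

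Most merged loci joined few genes. There were 929 with 2 symbols (69.7%), 285 with 3, 55 with 4, 57 with 5 to 9, and 7 with at least 10. The longest name held 40 symbols and belonged to the alpha and gamma protocadherin clusters on chromosome 18, which encode cell adhesion proteins whose alternative first exons share constant exons, with a span of 912 kb. The imprinted noncoding RNA *Rian* on chromosome 12, a host of small nucleolar RNAs and microRNAs, stood at a locus of 30 symbols (chr12:109571784-109661716, plus strand). Next came a locus of 12 mitochondrial symbols and one of 12 symbols in the *H2-T* region of the major histocompatibility complex (chr17:36029773-36216412, minus strand). The interferon-inducible *Ifi204* cluster joined 11 symbols (chr1:173632015-174031810, minus strand).

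By biotype, the names held 2090 protein-coding genes at 1195 loci, 472 long noncoding genes at 397, 361 microRNA genes at 306, 178 small nucleolar RNA genes at 98, 186 pseudogenes at 138 and 103 other small RNA genes at 74. At least 2 protein-coding genes stood at 579 loci. Each locus was then put in 1 class, the first that applied in a fixed order: with a microRNA (306 loci), with a small nucleolar RNA (85), protein-coding genes whose symbols share a stem such as *Hspa1a* and *Hspa1b* (80), protein-coding genes with no shared stem (472), 1 protein-coding gene with noncoding genes or pseudogenes (323), and no protein-coding gene (67). The classes differed in size and level. Loci with a small nucleolar RNA were the shortest, with a median span of 9.10 kb, and had the highest median CPM per kb, 17.5, after scaling by the trimmed mean of M-values (TMM), which adjusts each library's total for differences in composition. Loci with a microRNA had a median span of 30.0 kb. The other classes had median spans of 59.8 to 70.4 kb, and loci without a protein-coding gene had the lowest median CPM per kb, 2.28.

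The annotated genes of a merged locus overlapped each other at 668 loci, and at 500 of these 1 gene lay inside another. At 286 loci the genes were joined through 1 annotated gene that overlaps the others, which would otherwise lie apart. At 176 of these at least 2 protein-coding genes remained besides the joining gene. At *Gm21981/Prickle4/Tomm6*, for example, *Gm21981* runs across the other genes. At 377 loci the annotated genes lay apart with no annotated gene between to join them, and 376 of these held a transcript that the authors had assembled from the reads and that carries no reference identifier. Such a transcript was present at 1100 merged loci (82.5%) and at 53.2% of the single-gene loci. Among the 377 the widest gap between joined genes had a median of 10.3 kb, was below 10 kb at 186 and at least 100 kb at 56, and reached 1286 kb. At 2 loci the way of joining was not determined.

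**Figure D2:**
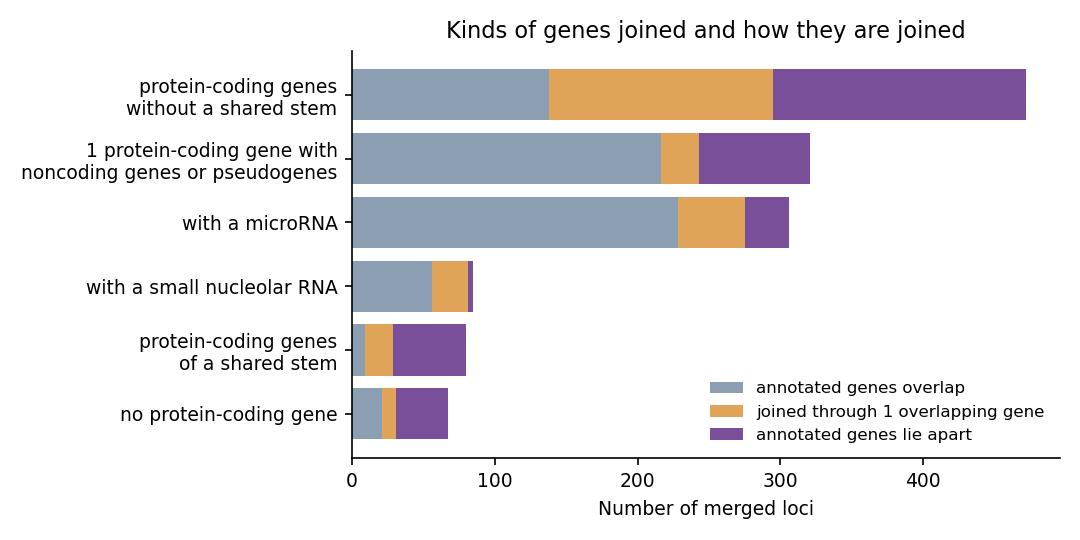
Number of merged loci in each class, split by whether the annotated genes overlap, are joined through 1 overlapping gene or lie apart (2 loci with undetermined joining are left out). Small RNA loci are mostly overlapping, 228 of 306 with a microRNA and 56 of 85 with a small nucleolar RNA, while 51 of the 80 loci with a shared stem join genes that lie apart.

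The 5 widest loci were joined in different ways. *Usp10/Galnt2/Gm20388* spanned 4499 kb (chr8:119847122-124345724, plus strand). It joined *Usp10*, a deubiquitinase gene of 47.2 kb, and *Galnt2*, a glycosyltransferase gene of 114 kb, through the annotated *Gm20388* of 4435 kb that runs over both. *Fgfr2/Ctbp2/Gm15718* spanned 2962 kb (chr7:130162451-133124354, minus strand), where the annotation itself gives *Fgfr2*, a fibroblast growth factor receptor gene, an extent of 2961 kb that reaches into the corepressor gene *Ctbp2*. *Hpcal1* was joined to 5 predicted pseudogenes over 2318 kb. *Lrp1b/Gm27348* (2058 kb) and *Dlg2/Gm45159/Gm45131* (1973 kb) are large neuronal genes with other genes inside them.

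The widest of these 5 loci had a far higher level than the narrowest. The *Usp10* locus had 283, 294 and 220 TMM-scaled CPM in KO NPCs 1, 2 and 3, and 294, 252 and 283 in WT NPCs 1, 2 and 3. The *Dlg2* locus had 0.663, 3.17 and 5.11 CPM in the KO NPCs and 0.919, 2.17 and 8.53 in the WT NPCs. The KO and WT values overlapped at both.

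Among protein-coding genes with a shared stem, many were close copies. A pair of such genes could be compared at 79 of the 80 loci by aligning the longest annotated coding sequences. The most alike pair of a locus had a median of 86.9% identical bases, and at least 95% at 27 loci and at least 99% at 8. The 2 coding sequences were identical at *Arxes2/Arxes1*, *Entpd4/Entpd4b*, *Mfap1a/Mfap1b*, *Rtl8b/Rtl8a* and for *Srp54a* and *Srp54b*. *Dynlt1b* and *Dynlt1c*, genes of a dynein light chain, were identical at 338 of 339 coding bases although 165 kb lie between them. *Hspa1a* and *Hspa1b*, which encode the inducible HSP70 chaperone, were 99.4% identical, and the tubulin genes *Tuba1a* and *Tuba1b* 98.3%. Histone genes of the *Hist1* clusters were joined too, with 98.8% identity between *Hist1h3b* and *Hist1h3d*. How reads were split between such copies is uncertain for every row that names them.

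Several of the highest levels of the libraries stood at merged loci. The 10 with the highest counts took 7.80% of all counts. The mitochondrial locus with 12 symbols, *mt-Cytb*, *mt-Co1* and *mt-Nd1* among them, had 30926, 27302 and 30766 CPM in KO NPCs 1, 2 and 3 and 41046, 28902 and 35415 in the WT NPCs. *Gm26917/Gm42418*, a pair of noncoding genes on chromosome 17, had 25673, 23586 and 10290 CPM in the KO NPCs and 25346, 26194 and 17611 in the WT NPCs. KO and WT values overlapped at both loci, and KO NPC 3 was the lowest library at the second. *Gm26377/Eef1a1*, named for translation elongation factor 1 alpha and a microRNA gene inside it, had 5321, 5060 and 3276 CPM in the KO NPCs and 5333, 5081 and 4895 in the WT NPCs, again with KO NPC 3 lowest. *Ccnb1ip1/Rpph1* had 2041, 2562 and 2342 CPM in the KO NPCs and 2636, 3034 and 1862 in the WT NPCs. *Rpph1* is the RNA of ribonuclease P, and its annotated end overlaps the start of *Ccnb1ip1*, so the row does not separate a housekeeping RNA from an mRNA. Per kb of exonic length the highest values were those of the signal recognition particle RNAs, 9601 CPM per kb at *Gm47295/Rn7s1/Gm47287* and 9481 at *Rn7s2/Gm47299/Gm47305*.

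The merged loci together held 23.0%, 22.2% and 21.2% of all counts in KO NPCs 1, 2 and 3, and 23.7%, 22.7% and 23.0% in WT NPCs 1, 2 and 3. The lowest share was that of KO NPC 3, and the groups overlapped. The mean share was 22.1% ± 0.921 (SD, n = 3) for KO NPCs and 23.1% ± 0.502 (SD, n = 3) for WT NPCs. KO minus WT came to -1.02 percentage points, which a two-sided exact permutation test over the 6 libraries did not separate from 0 (p = 0.3, where 0.1 is the smallest this design can give). Within replicate numbers 1, 2 and 3 the KO minus WT difference was -0.692, -0.553 and -1.81 percentage points. Without KO NPC 3 it was -0.542 percentage points.

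Of the 1333 merged loci, 0 passed an adjusted p under 0.05 between KO and WT NPCs by edgeR's quasi-likelihood test, and 0.0% of the 19089 loci tested did. At an unadjusted p under 0.05 there were 16 merged loci (1.2%), against a background of 1.61% over all loci tested. Of these, 13 were higher in the KO NPCs (background 0.943%) and 3 lower (background 0.665%). The KO and WT values did not overlap at 72 merged loci (5.4%), against 6.01% of all loci tested. The merged loci were thus near or below this background on each of these counts. The background includes many loci below the CPM threshold that every merged locus met, and no such count was made over the loci at that threshold alone. The replicate numbers as a block left 0 past the adjusted threshold and gave 15 loci higher (background 1.17%) and 11 lower (background 0.87%) at an unadjusted p under 0.05, or 26 against a background of 2.04% in either direction. Without KO NPC 3 there were 13 higher (background 1.06%) and 21 lower (background 1.69%), or 34 against 2.76%.

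The log2 fold changes, KO over WT, of the merged loci had a median of -0.04 (quartiles -0.19 and 0.15), against -0.01 over all loci tested. They were above 0 at 572 and below 0 at 761 merged loci, and above 0 at 9243 and below 0 at 9846 of all loci tested. The loci tested include many below the CPM threshold that every merged locus met. Over the 14064 tested loci that met it, merged loci included, the median was -0.03, with 6266 above and 7798 below 0. The log2 fold change lay within 0.5 of 0 at 86.9% of the merged loci, at 83.6% of the loci at that threshold and at 74.6% of all loci tested. It reached 1 in either direction at 3.45%, 4.64% and 9.31%. Of the 46 merged loci that reached 1, 13 still did so in the same direction without KO NPC 3, and 17 took the opposite sign. On a scale set by the count of *Rn7sk*, an RNA polymerase III transcript, the median of the merged loci was -0.30 and that of all loci tested -0.26. The authors also scaled by *Rn7sk*, but through a ratio of its log2 CPM values, so the scales differ. WT NPC 3 had the lowest *Rn7sk* count, 552680, against 814439 to 1154087 in the others, and its part in these medians was not tested.

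**Figure D3:**
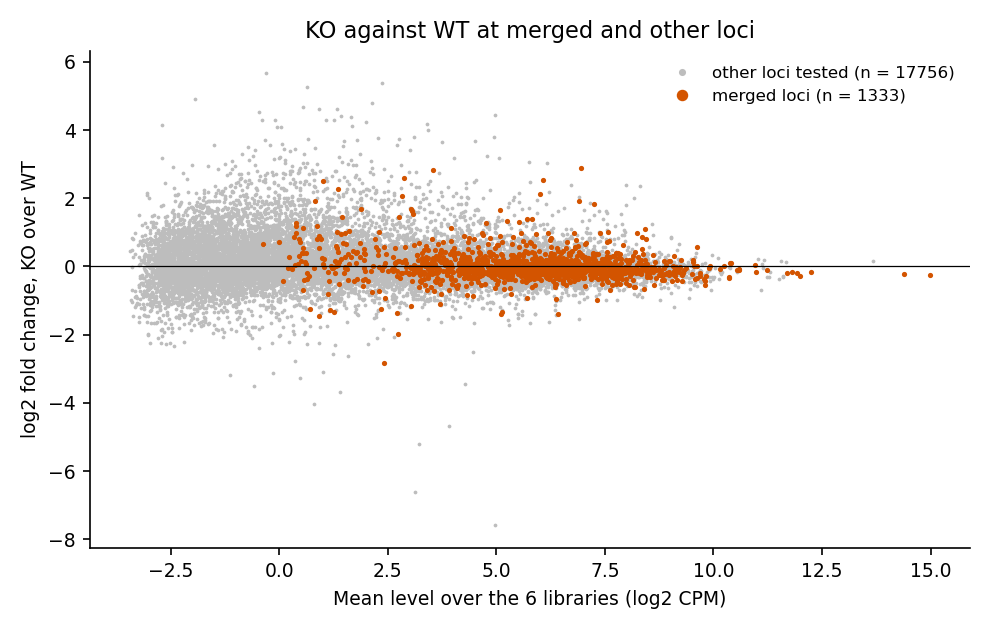
log2 fold change, KO over WT, against the mean log2 CPM of the 6 libraries, with the 1333 merged loci in orange among the 19089 loci tested, the others in grey. The merged loci lie mostly at higher levels and close to 0, 86.9% of them within 0.5.

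The lowest p-value was at *Pank2/Gm14233* (chr2:131262495-131299835, plus strand). *Pank2* encodes pantothenate kinase 2, a mitochondrial enzyme of coenzyme A synthesis, and the noncoding *Gm14233* of 1.29 kb overlaps its 3′ end. The locus had 52.8, 54.6 and 46.9 CPM in KO NPCs 1, 2 and 3, and 13.3, 16.2 and 19.7 CPM in WT NPCs 1, 2 and 3. Every KO library was above every WT library, KO NPC 3 included. The KO/WT log2 ratio came to 1.65 (standard error, SE, 0.20, unadjusted p = 0.000119, adjusted p = 0.379 by edgeR's quasi-likelihood test). Scaling by *Rn7sk* gave 1.35, and leaving out KO NPC 3 gave 1.71. It was the 1 merged locus past the adjusted threshold by edgeR's likelihood ratio test (adjusted p = 8.93e-05, against a background of 17 loci or 0.0891%) and by DESeq2 (adjusted p = 2.72e-10, background 0.183%). The likelihood ratio test with the replicate block also called it (adjusted p = 0.00139), along with *Gm24871/B930036N10Rik* (background 0.199%).

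*Gm24871/B930036N10Rik* (chr1:171496627-171504111, minus strand) is a small nuclear RNA gene inside an antisense RNA. It had 1.80, 5.22 and 5.62 CPM in the KO NPCs and 0.523, 0.559 and 1.53 CPM in the WT NPCs. All KO values were above the WT values, at a low level and with KO NPC 1 close to WT NPC 3. The CPM threshold was met in the 3 KO libraries and in 1 WT library, so the locus entered the set through the group where it is high. Its KO/WT log2 ratio of 2.27 (SE 0.65) is therefore a description with no test. It is still counted among the 16 loci at an unadjusted p under 0.05 and in the call with the replicate block given above. *Tfcp2l1/Gm23497*, also among the 16, met the threshold in 4 libraries, the 3 KO libraries among them. It had 2.00, 1.26 and 2.75 CPM in the KO NPCs and 0.903, 0.726 and 1.12 CPM in the WT NPCs.

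*Atf7/Npff/Gm28047* (chr15:102523839-102625464, minus strand) joins *Atf7*, a transcription factor gene, and *Npff*, which encodes the neuropeptide FF precursor, through the annotated read-through gene *Gm28047*. It had 105, 102 and 79.3 CPM in the KO NPCs and 65.0, 47.3 and 55.4 CPM in the WT NPCs, with no overlap. The KO/WT log2 ratio came to 0.77 (SE 0.19, unadjusted p = 0.00653) and 0.88 without KO NPC 3, when both edgeR's likelihood ratio test (adjusted p = 0.0254) and DESeq2 (adjusted p = 0.00211) called it. Without KO NPC 3 these tests called 3 merged loci (background 0.346%) and 7 merged loci (background 0.458%).

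*Dynlt1b/Dynlt1c* (chr17:6430112-6609774, plus strand) had 62.0, 37.4 and 72.2 CPM in the KO NPCs and 126, 104 and 99.03 CPM in the WT NPCs, so that every KO value was below every WT value. Fitted as KO over WT, the log2 ratio was -0.94 (SE 0.27, unadjusted p = 0.0121) and -1.14 without KO NPC 3, when the likelihood ratio test called it with an adjusted p of 0.0465 and DESeq2 with one of 0.0204. On the other strand of the same stretch, *Tmem181b-ps/Dynlt1f/Tmem181c-ps* (chr17:6438523-6655900) had 68.5, 44.1 and 119 CPM in the KO NPCs and 117, 108 and 101 CPM in the WT NPCs. There KO NPC 3 was the highest library and KO NPCs 1 and 2 the lowest, and the log2 ratio was -0.50, or -0.95 without KO NPC 3. DESeq2 called this locus too without KO NPC 3 (adjusted p = 0.0348). *Dynlt1b* and *Dynlt1c* are nearly identical and *Dynlt1f* lies on the opposite strand, so the source of these reads is uncertain.

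Loci with an unadjusted p under 0.05 included some that named interferon-responsive genes. *Igtp/Irgm2* (chr11:58199556-58222782, plus strand), a pair of immunity-related GTPases, had 1.76, 1.51 and 5.12 CPM in the KO NPCs and 0.745, 0.726 and 0.745 CPM in the WT NPCs. It is the 1 merged locus that met the CPM threshold in the 3 KO and in 0 WT libraries, so it entered the set only through the group where it is high, and its KO/WT log2 ratio of 1.92 (1.15 without KO NPC 3) is a description with no test. It is counted among the 16 loci at an unadjusted p under 0.05 and the 7 called by DESeq2 without KO NPC 3. *Parp14/Gm49730*, named for an ADP-ribosyltransferase, had a log2 ratio of 0.97, and 0.67 without KO NPC 3. Its unadjusted p by the quasi-likelihood test was 0.0377, but 0.0800 with the replicate block and 0.0660 without KO NPC 3. The KO and WT values of *Parp14* did not overlap. The *Ifi204* cluster of 11 symbols, in contrast, had 1.46, 0.838 and 1.59 CPM in the KO NPCs and 0.761, 1.77 and 25.3 CPM in the WT NPCs, where WT NPC 3 was far above the other 5 libraries and the log2 fold change was -2.84 (SE 1.30). These loci were grouped after their values were seen. No list of interferon-responsive genes was compared, so they do not show how such loci differ between KO and WT NPCs in general.

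The other loci with an unadjusted p under 0.05 included *Hspa1a/Hspa1b* (chr17:34956429-34972169, minus strand), with 9.57, 7.16 and 13.1 CPM in the KO NPCs and 6.12, 2.49 and 2.20 CPM in the WT NPCs. Fitted as KO over WT, the log2 ratio was 1.46 (SE 0.48) and the groups did not overlap. *Miga2/Gm47292*, named for a regulator of mitochondrial fusion, had 16.3, 16.2 and 14.2 CPM in the KO NPCs and 37.1, 28.6 and 19.7 CPM in the WT NPCs, a log2 ratio of -0.87 (SE 0.26). *Snhg11/Gm25187*, a host gene of small nucleolar RNA, had 1.70, 4.58 and 2.77 CPM in the KO NPCs and 7.70, 7.08 and 6.70 CPM in the WT NPCs, a log2 ratio of -1.25 (SE 0.39). *Grid1/Gm27617*, named for a glutamate receptor subunit of the delta type, had 37.5, 46.3 and 45.7 CPM in the KO NPCs and 29.9, 30.9 and 18.3 CPM in the WT NPCs, a log2 ratio of 0.71 (SE 0.24). None of these 4 had an adjusted p under 0.05 in any of the fits made, and their KO and WT values did not overlap.

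**Figure D4:**
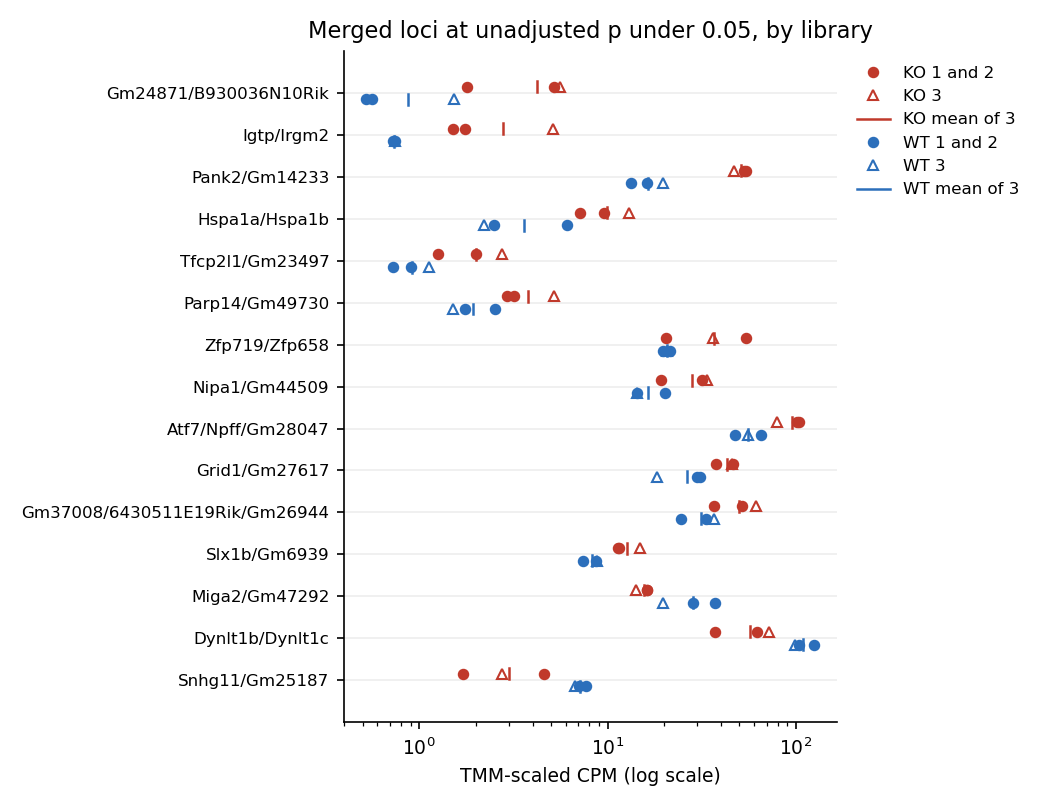
TMM-scaled CPM (log axis) in each library at merged loci with an unadjusted p under 0.05 (1 of the 16 is not shown), KO in red and WT in blue, with the mean of 3 libraries as a short line and replicate 3 as an open triangle. *Pank2/Gm14233* has 3 close KO values of 46.9 to 54.6 CPM above 3 WT values of 13.3 to 19.7, while at *Igtp/Irgm2* KO NPC 3 lies far from the other KO libraries.

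Of the 7 loci that DESeq2 called without KO NPC 3, 2 had the opposite sign with all libraries. *4930402H24Rik/Gm14057/A730017L22Rik* had 69.9, 63.9 and 347 CPM in the KO NPCs and 101, 109 and 97.3 CPM in the WT NPCs. The *Gm9801* locus, which names *Mir344g* and *Mir344i* among its 8 symbols, had 37.7, 41.1 and 635 CPM in the KO NPCs and 75.4, 57.9 and 65.3 CPM in the WT NPCs. KO NPCs 1 and 2 were below every WT library at both, and KO NPC 3 was far above. With all libraries the log2 ratios were 0.65 and 1.84, and without KO NPC 3, when DESeq2 called both, they were -0.61 (adjusted p = 0.000206) and -0.75 (adjusted p = 0.009).

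At the largest log2 fold changes of the merged loci, named here after their values were seen, 1 library often stood apart. *Tmeff2/Gm25736* (chr1:50900647-51187270, plus strand), named for a transmembrane protein of the nervous system, had 12.2, 45.9 and 597 CPM in the KO NPCs and 7.89, 39.8 and 40.7 CPM in the WT NPCs. The KO/WT log2 ratio came to 2.89 (SE 1.45), and -0.02 without KO NPC 3. *A230009B12Rik/Gm16168* had 55.1 CPM in KO NPC 3 and 1.58 to 4.19 CPM in the other 5 libraries. *Gm43302/Gbp10/Gbp6*, named for guanylate-binding proteins, had 33.9 CPM in KO NPC 3 and 0.745 to 3.58 CPM in the others. *Gm21816/Gm37466*, which lies within the span of the *Mir99ahg* locus, had 305 CPM in KO NPC 3 and 15.02 to 25.2 CPM in the others. Downward, after the *Ifi204* cluster, *Spp1/Gm42793* (osteopontin) had 5.25, 2.69 and 0.0339 CPM in the KO NPCs and 15.5, 4.18 and 12.1 CPM in the WT NPCs. *Anxa3/Gm42603* (annexin A3) had 23.7, 32.6 and 0.390 CPM in the KO NPCs and 49.2, 42.0 and 58.5 CPM in the WT NPCs. KO NPC 3 was far below the other libraries at both. The log2 ratio was -1.99 (SE 1.29) at *Spp1*, where KO and WT values overlapped, and -1.40 (SE 1.18) at *Anxa3*, where they did not. Without KO NPC 3 these were -1.42 and -0.83, in the same direction. The *Gm37899* locus of chromosome 12 had 0.398, 1.13 and 1.51 CPM in the KO NPCs and 0.586, 1.58 and 6.09 CPM in the WT NPCs, with WT NPC 3 highest, and a log2 ratio of -1.45 (SE 0.93), or -1.85 without KO NPC 3.

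KO NPC 3 also stood apart at many of the microRNA host loci. *Mir99ahg* with let-7c-1 and miR-99a had 45.2, 36.2 and 483 CPM in the KO NPCs and 57.0, 54.1 and 38.8 CPM in the WT NPCs. Fitted as KO over WT, the log2 ratio was 1.91 (SE 1.02) and -0.30 without KO NPC 3. The *3110039I08Rik* locus with miR-125b-1 and miR-100 had 164, 96.3 and 409 CPM in the KO NPCs and 146, 101 and 91.5 CPM in the WT NPCs. *Lncppara* with let-7b and let-7c-2 had 92.2, 53.7 and 253 CPM in the KO NPCs and 83.3, 86.1 and 106 CPM in the WT NPCs. At these 3 loci KO NPC 3 was the highest library. At *Mir99ahg* and *Lncppara* KO NPCs 1 and 2 overlapped or lay below the WT NPCs. At the *3110039I08Rik* locus KO NPC 1 was above every WT library. The log2 ratio there was 0.98 (SE 0.54), and 0.20 without KO NPC 3.

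At *Mcm7* and *Smc4* KO NPC 3 was instead the lowest library. *Mcm7* with miR-25 and miR-93, the gene of a DNA replication helicase subunit, had 231, 212 and 46.5 CPM in the KO NPCs and 183, 189 and 205 CPM in the WT NPCs. *Smc4* with miR-15b and miR-16-2, a condensin subunit gene, had 287, 253 and 58.3 CPM in the KO NPCs and 252, 254 and 255 CPM in the WT NPCs. *Gm3764* with miR-9-1 had 570, 414 and 494 CPM in the KO NPCs and 664, 591 and 678 CPM in the WT NPCs. Here the groups did not overlap, and the log2 ratio was -0.39 both with all libraries (SE 0.18, unadjusted p = 0.0701) and without KO NPC 3. *C130071C03Rik* with miR-9-2, which encodes the same mature sequence, had 112, 138 and 171 CPM in the KO NPCs and 118, 105 and 145 CPM in the WT NPCs, a log2 ratio of 0.20 (SE 0.22) with overlap. *Mir17hg* had 28.4, 8.75 and 8.91 CPM in the KO NPCs and 13.6, 11.7 and 8.89 CPM in the WT NPCs, with KO NPC 1 highest. Over all 306 loci with a microRNA, the median log2 fold change was -0.08, with 114 above 0 and 192 below, and it was -0.02 without KO NPC 3. KO NPC 3 was the lowest library at 146 of them and the highest at 81.

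**Figure D5:**
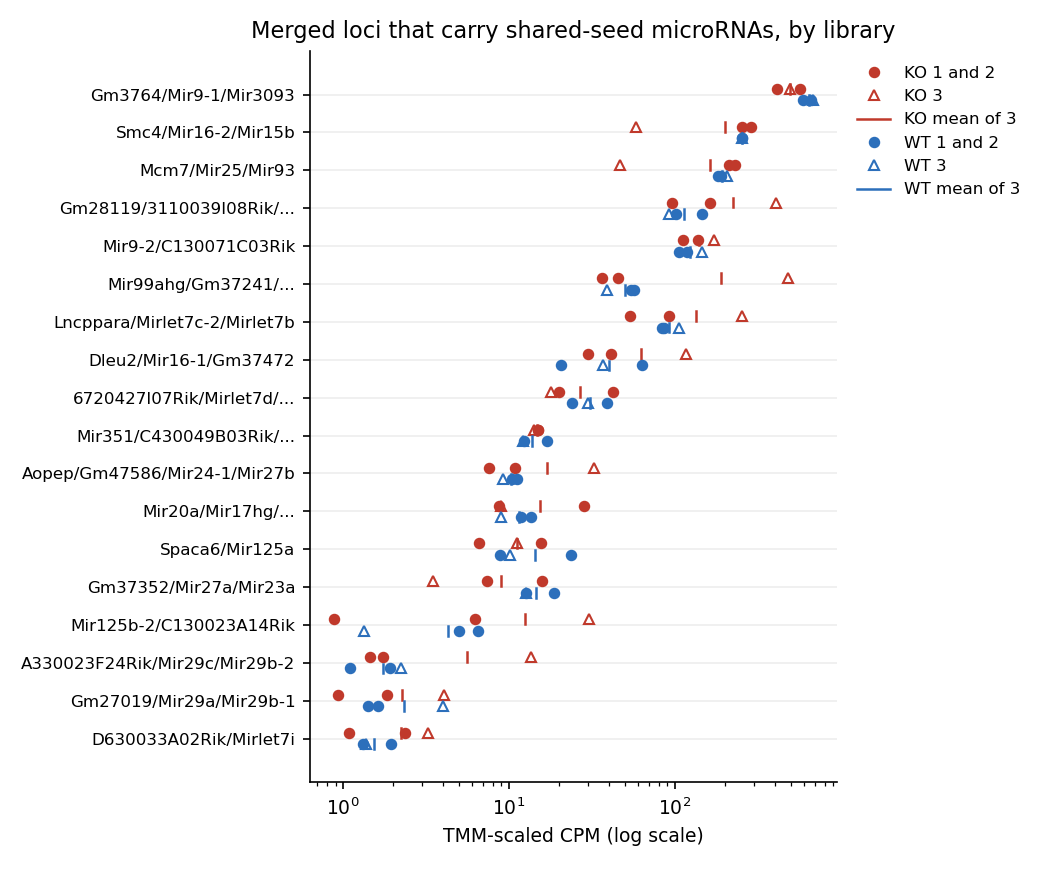
TMM-scaled CPM (log axis) in each library at merged loci of selected microRNA families that share a seed across loci. Not all of the 43 loci that share a seed are shown. KO is in red and WT in blue, with the mean of 3 libraries as a short line and replicate 3 as an open triangle. KO NPC 3 is far to the right at *Mir99ahg* (483 CPM) and far to the left at *Mcm7* (46.5 CPM) and *Smc4* (58.3 CPM), while the WT libraries of these loci lie close together.

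Small nucleolar RNAs guide the modification of ribosomal RNA, and many are carried in introns of genes of the translation machinery. Of the 85 loci with one, 70 lay below 0 on the log2 scale of KO over WT and 15 above, the median being -0.17, and KO NPC 3 was the lowest library at 68. Without KO NPC 3 the median was 0.05. Of the 91 cytosolic ribosomal protein genes listed, 35 stood at 35 merged loci, 2 above 0 and 33 below, with a median log2 fold change of -0.19, which was 0.01 without KO NPC 3. KO NPC 3 was the lowest library at 34 of the 35. *Rpl4*, a protein of the large ribosomal subunit, had 615, 561 and 342 CPM in the KO NPCs and 591, 566 and 609 CPM in the WT NPCs at *Snord16a/Rpl4/Gm22455*. *Rpsa*, a protein of the small subunit, had 640, 582 and 368 CPM in the KO NPCs and 793, 726 and 632 CPM in the WT NPCs. None of the 35 reached an unadjusted p under 0.05 by the quasi-likelihood test, and the lowest among them was 0.124.

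Of 44 listed regulators of the ganglionic eminence and of neural progenitors, 8 stood at 8 merged loci, 5 above 0 and 3 below on the log2 scale of KO over WT (median 0.18, and 0.05 without KO NPC 3). None reached an unadjusted p under 0.05. *Sox2*, a transcription factor of neural stem cells, lies inside the long noncoding *Sox2ot*, and its merged locus of 7 symbols spanned 578 kb (chr3:34104270-34682619, plus strand) although *Sox2* itself has 2.06 kb. The locus had 548, 600 and 812 CPM in the KO NPCs and 548, 626 and 536 CPM in the WT NPCs. *Zeb2*, a transcription factor of interneuron precursors, was joined to *Gtdc1* across a gap of 56.0 kb and had 224, 355 and 580 CPM in the KO NPCs and 226, 302 and 291 CPM in the WT NPCs. *Notch1/Mir6996* had 572, 642 and 745 CPM in the KO NPCs and 561, 839 and 616 CPM in the WT NPCs. KO and WT values overlapped at all 3 loci, and KO NPC 3 was the highest library at all but *Notch1*. The level of a transcription factor read from such a row includes that of the RNA joined to it.

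Of 49 listed imprinted genes, which are expressed from 1 parental allele, 14 stood at 12 merged loci, 6 above 0 and 6 below (median 0.02). None reached an unadjusted p under 0.05. *Meg3* and *Rian*, noncoding RNAs of the same imprinted domain of chromosome 12, varied between cultures of each genotype. The *Meg3* locus had 1.11, 13.6 and 9.70 CPM in the KO NPCs and 1.14, 14.1 and 37.7 CPM in the WT NPCs, and the *Rian* locus had 3.18, 6.43 and 5.72 CPM in the KO NPCs and 3.17, 8.84 and 22.1 CPM in the WT NPCs. Both were lowest in the libraries numbered 1 and highest in WT NPC 3. *Mest/Mir335* had 942, 1124 and 129 CPM in the KO NPCs and 1099, 1110 and 959 CPM in the WT NPCs, with KO NPC 3 far below the rest. The *Snrpn* locus, which joins *Snrpn*, *Snurf* and *Snhg14*, had 136, 170 and 237 CPM in the KO NPCs and 124, 143 and 154 CPM in the WT NPCs, with overlap.

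Of 32 listed RNA polymerase subunit genes, 1 stood at a merged locus. *Polr3k*, a subunit of RNA polymerase III, was joined to the pseudogene *Gm5466* across 25.99 kb, with 53.1, 73.6 and 105 CPM in the KO NPCs and 58.4, 72.7 and 50.6 CPM in the WT NPCs. The KO/WT log2 ratio came to 0.35 (SE 0.29), and 0.06 without KO NPC 3. Of 12 genes listed as *Armc5* and its neighbours, *Vkorc1* and *Prss53* stood at 1 merged locus, joined through *Gm21974* (chr7:127885841-127895617, minus strand). It had 11.3, 11.7 and 10.1 CPM in the KO NPCs and 13.4, 11.4 and 12.8 CPM in the WT NPCs, a log2 ratio of -0.18 (SE 0.18) with overlap.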

How the data were processed

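RNA-seq was done on NPCs from 3 *Armc5* KO and 3 WT cultures. Per the labels, rRNA was depleted and libraries were strand-specific and paired-end, and the submitters' processing notes name GRCm38 and, with no version, the tools Trimmomatic for trimming, STAR, Picard, StringTie and edgeR. The counting step and its strand setting are not given in the sources used here. The authors deposited raw counts per assembled locus with its coordinates (1-based), symbols, transcripts and exonic length. They also deposited log2 CPM on the library and on the *Rn7sk* scale, which were not used as values here. The table had 59699 rows, 53103 with a gene name and 6596 without, the latter left out of the fits. Each row was taken as it stands and none was split. All levels printed as CPM are scaled by trimmed mean of M-values (TMM) unless called raw.

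The 53103 rows that name a gene were filtered with filterByExpr (minimum count 10, minimum total 15), leaving 19089 loci with all 1333 merged loci among them. Before the filter, the rows that name a gene held 52995791 to 85170379 counts a library. Library sizes were recomputed over the loci kept and scaled by TMM. The loci were tested with edgeR's quasi-likelihood test, with Benjamini-Hochberg adjustment over all 19089. Fits used edgeR 4.0.16 with limma 3.58.1 in R 4.3.3, and DESeq2 1.42.0 for an alternative. They were tested on simulated counts. Genes were matched to GENCODE M21 (3405 of 3407 identifiers and 3354 of 3390 symbols), which gave the coordinates of 48687 of 51355 single-gene rows exactly, and mature microRNAs to RefSeq GRCm38.p6. Coding sequences were compared by global alignment, with identical bases given over the longer sequence.

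Same-numbered KO and WT libraries deviated together from their genotype means (r = 0.412, 0.170 and 0.195 for numbers 1, 2 and 3, and at most 0.0576 for other pairs), and the study's methods speak of pairs of biological replicates. A fit with the number as a block was therefore made as an alternative. Nothing in the labels says which embryos gave which culture, so p-values measure the spread between these cultures.

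The merged loci and the gene lists were chosen with earlier results of these data known. The loci named are the 3 with the highest count in each class, the 5 widest, the 5 with the most symbols, the 8 of lowest p in each direction, those called in any fit and the 4 of highest count in each list. The microRNA families, the interferon-responsive loci, the largest log2 fold changes and *Meg3* were added after their values were seen. Some loci are not reported here. Other alternatives were scaling by *Rn7sk* or total counts, no filter or a CPM filter, the likelihood ratio test, DESeq2, rows of one name summed, rows without a name kept, and each library left out. Chosen after seeing the data were leaving out both libraries numbered 3, leaving out KO NPC 3 with the likelihood ratio test or DESeq2, and leaving the 2 highest loci out of the share of counts.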

Additional observations from a re-analysis of the deposited data

How the results depend on the processing

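The number of merged loci was 1379 at a threshold of 0.5 CPM, 1283 at 2 CPM, 1274 at 1 CPM in all 6 libraries and 1618 with no threshold. Merged loci past the adjusted threshold were 0 by the quasi-likelihood test under each scaling, filter and left-out library and with the replicate block. They were 1 by the likelihood ratio test, 1 by DESeq2 and 2 when the likelihood ratio test had the replicate block, and without KO NPC 3 they were 3 by the likelihood ratio test and 7 by DESeq2. The counts that follow are of merged loci at an unadjusted p under 0.05, each with the share of all loci tested in the same fit. Lower in the KO NPCs were 9 on the *Rn7sk* scale (0.828%), 10 by DESeq2 (0.995%), 11 with the replicate block (0.87%), 10 with the block in the likelihood ratio test (1.35%), 16 by the likelihood ratio test without KO NPC 3 (2.12%), 29 by DESeq2 without it (2.5%) and 29 without both libraries numbered 3 (1.65%). Higher were 22 by the likelihood ratio test (2.07%), 22 by DESeq2 (2.03%), 28 by DESeq2 without KO NPC 3 (1.57%) and 20 without both libraries numbered 3 (1.16%). As a share of the 1333 merged loci, 22 is 1.65%, 28 is 2.1%, 20 is 1.5% and 29 is 2.18%. With no filter there were 24 higher (1.5%) and 7 lower (0.701%). Leaving out each library in turn gave 9 to 35 higher and 4 to 23 lower. The most were without KO NPC 1, with 35 higher (2.63% of the merged loci, 3.43% of all tested) and 23 lower (1.73% and 1.33%). Without KO NPC 2 there were 25 higher (2.2%) and 8 lower (0.753%), and without WT NPC 1 there were 12 (0.506%) and 5 (0.462%). Without WT NPC 2 there were 14 higher (0.863%) and 4 lower (0.671%), and without WT NPC 3 there were 9 (0.735%) and 9 (0.498%). The block changed no other call among the loci named. The causes were not tested.

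The median log2 fold change was -0.30 on the *Rn7sk* scale, where the median of all loci tested also moved (to -0.26), and from -0.08 to 0.01 when 1 library was left out. The KO minus WT share of counts was negative under every alternative, from -1.81 (within replicate number 3) to -0.316 percentage points of the total (without the 2 highest loci), from -1.46 to -0.542 when 1 library was left out, and -4.44 as a ratio to the *Rn7sk* count.

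For 33 loci, 587 of 627 log2 fold changes under alternatives kept their direction and their side of the adjusted threshold. Another 12 kept their direction and passed the threshold, and 28 took the opposite sign. Among the 28, the values of *4930402H24Rik* and the *Gm9801* locus by DESeq2 without KO NPC 3 also passed the threshold. Without KO NPC 3, with any of the 3 tests, the sign turned at *Rpl7a* (0.047, and 0.048 by DESeq2), *Blcap* (-0.21), *4930402H24Rik* (-0.61) and the *Gm9801* locus (-0.75). Without both libraries numbered 3 it turned at the same 4 (0.036, -0.21, -0.65 and -0.77) and at the *Sox2ot* locus (-0.039), *Rpl4* (0.016) and *Polr3k* (-0.057). On the *Rn7sk* scale it turned at *Sox2ot* (-0.040), *Rpl6* (-0.054), *Blcap* (-0.19) and *Ube3a* (-0.19). *Ube3a* also turned without KO NPC 1 (-0.016). *Notch1* turned with total-count scaling (0.030), the CPM filter (0.0082) and without KO NPC 1 (0.04) or WT NPC 2 (0.18). With 1 library left out, the ranges of these loci were -0.35 to 0.047 at *Rpl7a*, -0.61 to 1.04 at *4930402H24Rik*, -0.21 to 0.27 at *Blcap*, -0.016 to 0.21 at *Ube3a*, -0.15 to 0.18 at *Notch1* and -0.75 to 2.36 at the *Gm9801* locus. With 3 libraries a genotype, small differences are not resolved at this depth of replication. KO NPC 3 stood apart from the other libraries, and its part in these differences was not tested.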
